A study of Mus musculus with 12 samples.

Results

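The mouse mitochondrial genome carries its own small set of genes, and their transcripts are described here in activated CD8 T cells treated with genipin, N-acetylcysteine (NAC), both compounds or neither. All genes whose symbol begins with mt- were taken, which gave 37 of the 55450 genes in the tables. They comprise 13 mRNAs, 2 rRNAs and 22 tRNAs. The 15 mRNAs and rRNAs each had a mean of at least 10 expected counts over the 12 libraries, and these 15 passed the filter on low counts and were tested. The 22 tRNAs are 59 to 75 bases long, have an effective length of 0 in the tables and were listed at 0 in each library. With paired reads of 150 bases and this counting the tables give no measurement of them.

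Genipin, from gardenia fruit, is used as an inhibitor of the uncoupling carrier Ucp2, and NAC supplies cysteine for glutathione. The cells came from pmel-1 mice, which carry a T cell receptor transgene against the melanoma antigen gp100, and all groups had the wild-type Ucp2 genotype. They were activated through the receptor and grown for 4 days with IL-2 at 10 ng/ml. The 4 groups of 3 libraries were genipin, genipin plus NAC, NAC, and vehicle (culture medium). Neither doses nor the route of activation of these libraries (peptide, or antibodies to CD3 and CD28) are given in the sources used here. Nothing in the labels says whether replicates came from separate mice or cultures, so the p-values reflect variation among libraries that may be technical only.

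Mitochondrial DNA is a circle that is copied by the polymerase Polrmt with the factors Tfam and Tfb2m into long transcripts running along each strand. The tRNAs lie between the larger genes, and their removal from the long transcript releases the rRNAs and mRNAs. The rRNAs lie near the start of the transcript that holds most genes, here called the heavy-strand transcript, and mt-Cytb lies near its end. The mRNAs encode core subunits of respiratory complexes I, III, IV and V, which are completed by subunits from the nucleus, while complex II is made of nuclear subunits alone. Activated T cells depend on these complexes as they grow and divide.

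In the annotation (GENCODE mouse release 21, mm10) 28 of the genes lie on the plus strand of chromosome M and belong to the heavy-strand transcript. The other 9 lie on the minus strand, and mt-Nd6, a complex I subunit, is the 1 mRNA among them. The 15 measured genes run from mt-Rnr1 (chrM:70-1024) to mt-Cytb (chrM:14145-15288), and at 3 places neighbours share more than 1 base, where the tables may split reads between them. The genes mt-Atp8 (chrM:7766-7969) and mt-Atp6 (chrM:7927-8607), both of complex V, share 43 bases. The end of mt-Atp8 and the start of mt-Atp6 are shown on the plus strand from 2 overlapping stretches, chrM:7910-7969 and chrM:7927-7986, with the shared bases in capitals.

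mt-Atp8: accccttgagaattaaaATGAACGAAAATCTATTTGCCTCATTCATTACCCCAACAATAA

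mt-Atp6: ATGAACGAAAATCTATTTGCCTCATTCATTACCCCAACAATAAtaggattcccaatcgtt

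The complex I genes mt-Nd5 (chrM:11742-13565, plus strand) and mt-Nd6 (chrM:13552-14070, minus strand) meet tail to tail and share 14 bases on opposite strands. Their last 40 bases, each 5′ to 3′ on its own strand (chrM:13526-13565 and chrM:13552-13591), are shown with those 14 bases in capitals. The kit keeps strand, but the strand setting used for counting is not given in the sources used here. Reads of mt-Nd6 and antisense reads from the heavy-strand transcript therefore may not have been told apart. An overlap of 7 bases joins mt-Nd4l and mt-Nd4.

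mt-Nd5: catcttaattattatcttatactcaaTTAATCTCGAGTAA

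mt-Nd6: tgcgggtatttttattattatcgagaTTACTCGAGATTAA

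The nuclear genome holds copies of mitochondrial DNA, and for 7 of the mRNAs an annotated copy on the minus strand of chromosome 1, between 24611535 and 24616197, is nearly identical. For mt-Co2, mt-Atp6, mt-Co3, mt-Nd4l and mt-Nd4 the compared stretches of 294 to 876 bases had 0 mismatches. The copy of mt-Nd3 (Gm28438) differed at 1 base of 345, T3C, counted from the first base of the gene. The first 32 bases of both are shown, from chrM:9459-9490 (plus strand) and chr1:24613088-24613119 (minus strand), with the differing base in capitals.

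mt-Nd3: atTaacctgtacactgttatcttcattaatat

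Gm28438: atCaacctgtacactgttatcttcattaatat

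The copy of mt-Co1 (Gm29216) covers 492 bases of that gene and differed at 6 of them, T1056A, C1057T, A1059G, A1060G, C1062A and A1066T. All 6 lie at one end of the copy, shown from chrM:6381-6422 (plus strand) and chr1:24616156-24616197 (minus strand) with the differing bases in capitals. The rest of the 492 bases is identical. A read from most of these stretches has more than 1 possible source, so the counts of gene and copy were also added together, an alternative chosen after seeing the data.

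mt-Co1: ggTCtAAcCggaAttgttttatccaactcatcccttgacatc

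Gm29216: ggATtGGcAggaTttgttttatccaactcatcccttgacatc

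The deposited counts divided each pair unevenly. The mitochondrial gene was given 8.07% to 15.0% of the pair for mt-Co2, 7.84% to 15.9% for mt-Atp6 and 10.6% to 21.1% for mt-Co3. It was given 5.58% to 14.5% for mt-Nd3 and 7.76% to 24.98% for mt-Nd4l, but 90.1% to 92.0% for mt-Co1 and 98.5% to 98.8% for mt-Nd4. The share moved between libraries of 1 group: mt-Nd4l had 24.98%, 11.4% and 11.2% of its pair in the 3 vehicle libraries.

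**Figure D1:**
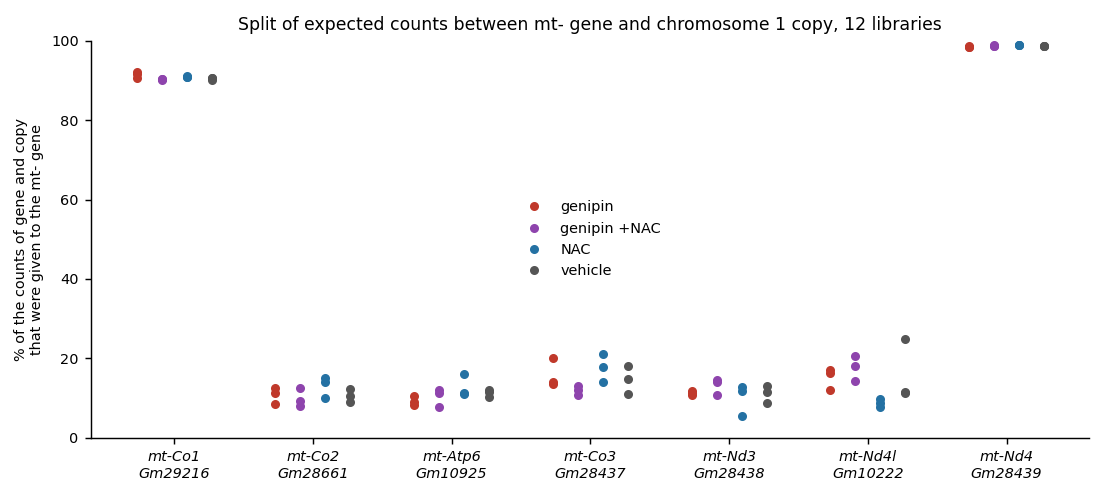
Percent of the expected counts of each mt- gene and its chromosome 1 copy that the deposited tables gave to the mt- gene, with 1 point per library. For 5 pairs no library is above 24.98%, while mt-Co1 and mt-Nd4 are at or above 90.1%.

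Adding the copies narrowed the errors of the 5 genes with low shares: for genipin against vehicle their SE were 0.10 to 0.20 as deposited and 0.03 to 0.04 with the copies added (log2 scale). For mt-Nd4l the deposited counts gave 8.83, 8.35 and 6.97 CPM (expected counts scaled to a common library total) in NAC libraries, against 36.8, 17.3 and 17.7 CPM in vehicle libraries. With the copy added the values were 91.6, 95.1 and 89.8 CPM in NAC libraries and 147, 152 and 158.9 CPM in vehicle libraries. The log2 fold change of mt-Nd4l under NAC was -1.57 ± 0.24 (SE) from the deposited counts and -0.73 ± 0.05 with the copy added. CPM and fold changes below have the copies added unless stated. Deposited values are given where the call or the direction differs or a called change moves by over 1.5 times.

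The libraries held 20838894 to 31098648 expected counts each, and the test covered 13636 genes. Summed marker levels of several cell types differed between the groups, without overlap for CD8 T cells, B cells, NK cells, macrophages or dendritic cells, and mast cells or neutrophils. The 8 markers of CD8 T cells were Cd3e, Cd3g, Cd8a, Cd8b1, Thy1, Trac, Lck and the effector gene Gzmb. They summed to 13197 to 13264 CPM with genipin, 11636 to 11688 with genipin plus NAC and 8704 to 8813 with NAC. With vehicle the sum was 14518 to 14823 CPM. A sum follows its most abundant members. The median log2 change of the 8 markers from vehicle was 0.05, 0.23 and -0.21 in that order. The 6 NK cell markers summed to 20.2 to 20.5 CPM with genipin, 9.57 to 11.9 with genipin plus NAC and 3.84 to 4.75 with NAC, against 7.62 to 8.10 CPM with vehicle. In the same order, the 7 markers of macrophages or dendritic cells summed to 30.2 to 34.0, 93.5 to 100.3 and 63.1 to 66.6, against 44.3 to 49.6 CPM with vehicle. The 4 markers of CD4 T cells summed to 38.9 to 42.4, 51.8 to 60.9 and 68.0 to 72.7, against 38.4 to 41.8 CPM with vehicle, so they were higher in both groups with NAC. The 7 markers of mast cells or neutrophils, of which S100a8 and Elane were at 0 throughout, summed to 63.1 to 64.1, 247 to 254 and 60.5 to 62.5, against 26.5 to 29.7 CPM with vehicle. The 6 markers of B cells summed to 0.942 to 1.72, 4.37 to 6.78 and 9.77 to 12.3 in the same order, against 2.61 to 2.73 CPM with vehicle. Markers of red cells summed to 0.0762 to 0.945 CPM over the 12 libraries, and no other marker was at 0 in all of them. The genipin plus NAC replicate 1 stood apart: its chi-square per degree of freedom against the other 2 replicates was 6.95 and 8.07, while the other replicate pairs had 2.08 to 2.92. Results that rest on this library are given without it as well. In bulk RNA, fewer mitochondria-rich cells and less RNA per cell cannot be told apart.

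The mt- genes took 2.13% ± 0.0644 of the counts with genipin, 1.69% ± 0.101 with genipin plus NAC, 1.61% ± 0.0225 with NAC and 1.62% ± 0.0255 with vehicle (SD, n = 3 each). With the copies included these shares were 3.21%, 2.44%, 2.25% and 2.38%. All 3 genipin libraries were above all others on both measures. The gene mt-Co1, the catalytic subunit of complex IV, alone took a large part of the deposited mt- counts. Its share was 46.5% with genipin, 58.1% with genipin plus NAC, 58.5% with NAC and 53.2% with vehicle. These shares leave out the copies, which hold most counts of mt-Co2, mt-Atp6, mt-Co3, mt-Nd3 and mt-Nd4l. With the copies included the mt-Co1 share would be lower in each group.

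With the copies added and mt-Atp8 left aside, the complex IV mRNAs were the most abundant per kilobase of effective length in vehicle cells. The level was 7245 ± 151 CPM per kilobase for mt-Co1, 5905 ± 136 for mt-Co3 and 4714 ± 127 for mt-Co2, and that of mt-Atp6 was 3938 ± 157 (SD, n = 3 each). Then came mt-Nd3, with 1977 ± 57.5 CPM per kilobase, and 2 complex I genes whose libraries overlapped, mt-Nd1 with 1760 ± 46.6 and mt-Nd4l with 1705 ± 68.5. The level was 1359 ± 32.1 for mt-Cytb, the complex III subunit, and 901 ± 26.1 for mt-Nd4, 816 ± 41.1 for mt-Nd2 and 649.9 ± 24.2 for mt-Nd5. The rRNAs, mt-Rnr2 at 567 ± 20.4 and mt-Rnr1 at 411 ± 10.8, stood below most of the mRNAs. Library preparation removed ribosomal RNA, and whether its probes cover mitochondrial rRNA is not given in the sources used here, so these levels may not be those of the cell. The light-strand mRNA mt-Nd6 was lowest, at 16.4 ± 2.22 CPM per kilobase. Levels per kilobase use library totals without TMM factors, so they serve to compare genes within a group. No such level is given for mt-Atp8, whose effective length was 21.6 to 27.6 bases. Those of mt-Nd3 (124 to 136 bases) and mt-Nd4l (81.9 to 91.9 bases) were short as well. The order rests in part on the added copies. As deposited, mt-Co2 (486 to 626 TPM) and mt-Co3 (734 to 1154 TPM) were below mt-Nd1 (1897 to 2011 TPM) in vehicle cells.

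With genipin and the copies added, mt-Co1 and mt-Co3 reached like levels, 8205 ± 140 and 8159 ± 245 CPM per kilobase. With NAC they stood apart, at 7884 ± 160 and 4828 ± 113. As deposited, mt-Co3 was far below mt-Co1 with genipin too, at 1246 to 1975 against 8588 to 8941 TPM. The mt-Co1 level per kilobase was higher with NAC than with vehicle (7245 ± 151). With TMM factors its means were alike, 9925 and 9936 CPM. The order of the remaining mRNAs changed as well: mt-Cytb was above mt-Nd1 with genipin (2627 ± 80.4 and 2367 ± 60.9 CPM per kilobase) and below it in the other 3 groups.

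**Figure D2:**
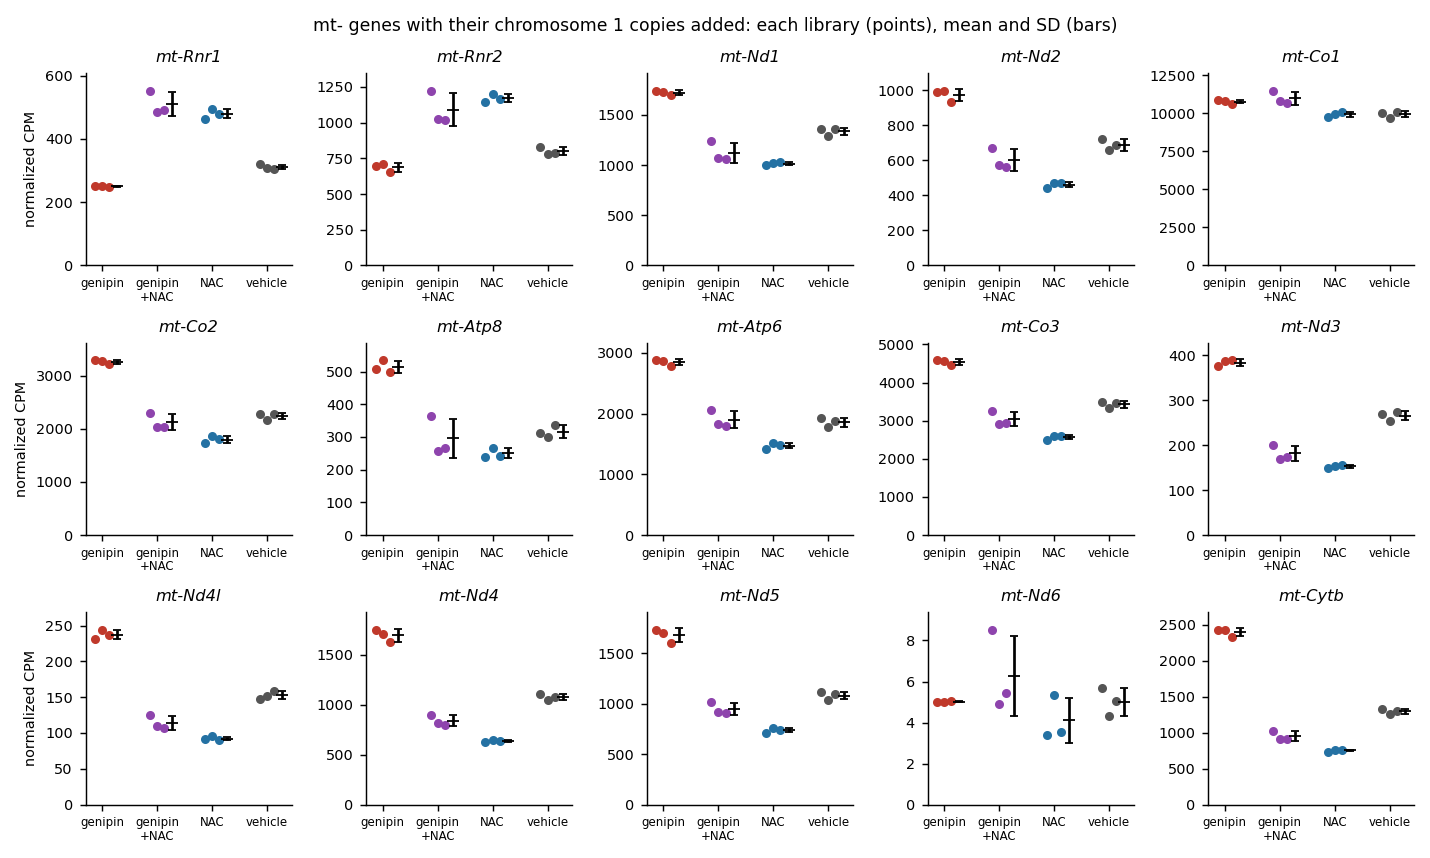
Normalized CPM of the 15 measured mt- genes with the copies added, 1 point per library, with the mean and SD beside them. The 3 genipin libraries are above all vehicle libraries in 12 genes, below them for mt-Rnr1 and mt-Rnr2, and overlap them for mt-Nd6.

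Genipin against vehicle asks how the compound alone changed these transcripts. The mRNAs of the heavy strand rose, by 1.08-fold to 1.85-fold with the copies added, while both rRNAs fell and mt-Nd6 had no call. In the same libraries the summed markers of NK cells and of mast cells or neutrophils were higher than with vehicle. The sums of CD8 T cells, B cells, and macrophages or dendritic cells were lower. Single markers were mixed, with 4 of 8 CD8 T cell markers called higher and 3 lower (29.9% and 31.0% of all genes). Of 3 tested macrophage or dendritic cell markers 1 was called higher and 2 lower. The part of these markers in the result was not tested. From the deposited counts 12 of the 15 measured genes rose (29.9% of all genes did so) and 2 fell (31.0% of all genes), by the quasi-likelihood test of edgeR at an adjusted p under 0.05. With the copies added the counts were 12 and 2 as well, where the shares of all genes were 30.0% and 31.1%. The median log2 fold change of the 15 was 0.54, and that of all genes tested was -0.01.

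The mt-Cytb mRNA had the largest change. It stood at 2429, 2433 and 2337 CPM with genipin, against 1323, 1264 and 1304 CPM with vehicle. Every genipin library was above every vehicle library, with a log2 fold change of 0.89 ± 0.04 (SE) and an edgeR adjusted p of 1.84e-14. Of the complex I genes mt-Nd4 changed by 0.65 ± 0.04, mt-Nd5 by 0.64 ± 0.04, mt-Nd2 by 0.50 ± 0.05 and mt-Nd1, the first mRNA of the transcript, by 0.37 ± 0.04. The short complex I genes with copies, mt-Nd3 and mt-Nd4l, changed by 0.53 ± 0.04 and 0.63 ± 0.04 with the copies added, and by 0.56 ± 0.17 and 0.59 ± 0.20 as deposited.

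In complex V, mt-Atp8 rose by 0.70 ± 0.08 on the log2 scale. Its partner mt-Atp6, which forms part of the proton channel, rose by 0.61 ± 0.04 with the copy added and by 0.33 ± 0.10 as deposited. In complex IV, mt-Co2, which takes electrons from cytochrome c, rose by 0.54 ± 0.04 and mt-Co3 by 0.40 ± 0.03 with the copies added, against 0.56 ± 0.13 and 0.54 ± 0.15 as deposited. The other complex IV gene, mt-Co1, changed least of the 12, with 10841, 10829.6 and 10639.8 CPM in genipin libraries against 10011, 9696 and 10101 CPM with vehicle. The groups did not overlap, and its log2 fold change was 0.12 ± 0.03 with the copy added (adjusted p = 0.000969, edgeR). As deposited, 4 of these calls rest on single libraries. The call of mt-Co3 was lost without genipin replicate 1 (0.32, edgeR adjusted p = 0.0534) and that of mt-Nd3 without vehicle replicate 1 (0.43, adjusted p = 0.0543). That of mt-Atp6 was lost without genipin replicate 2 (0.22) or vehicle replicate 3 (0.27), and that of mt-Nd4l without genipin replicate 3 (0.49), vehicle replicate 2 (0.41) or vehicle replicate 3 (0.40). No single library decided a call in this comparison with the copies added.

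Both rRNAs went the other way. The small-subunit rRNA mt-Rnr1 had 252, 251 and 249 CPM with genipin, against 320.1, 307 and 306 CPM with vehicle, a log2 fold change of -0.31 ± 0.04 with an edgeR adjusted p of 6.56e-07. The large-subunit rRNA mt-Rnr2 had 699, 710.4 and 652 CPM with genipin, against 830.1, 778 and 788 CPM with vehicle, a change of -0.22 ± 0.05 (adjusted p = 0.000865). In each case all genipin libraries were below all vehicle libraries.

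The light-strand mRNA mt-Nd6 had 4.99, 5.001 and 5.07 CPM with genipin, against 5.66, 4.30 and 5.04 CPM with vehicle, from 103 to 141 expected counts in these 6 libraries. The groups overlapped. Its log2 fold change was 0.01 ± 0.19 (adjusted p = 0.981, edgeR), an error that leaves room for changes of the size seen for mt-Rnr1.

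NAC against vehicle asks what the antioxidant did alone. The heavy-strand mRNAs other than mt-Co1 fell and both rRNAs rose. From the deposited counts 2 of the 15 rose (29.6% of all genes did so) and 8 fell (30.0% of all genes). With the copies added 2 rose and 11 fell, where 29.7% and 30.0% of all genes did so. In the same libraries the summed markers of CD8 T cells and of NK cells were lower with NAC than with vehicle. The sums were higher for CD4 T cells, B cells, macrophages or dendritic cells, and mast cells or neutrophils. Of 8 CD8 T cell markers 2 were called higher and 5 lower (29.6% and 30.0% of all genes). Of 3 tested macrophage or dendritic cell markers 1 was called higher and 2 lower. The 3 tested markers of mast cells or neutrophils split in the same way. The part of these markers in the result was not tested. The median log2 fold change of the 15 was -0.34 as deposited and -0.40 with the copies added, beside -0.01 over all genes tested. This comparison and the others against vehicle use the same 3 vehicle libraries, so their directions are not independent of each other.

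Of the rRNAs, mt-Rnr1 had 465, 493 and 479 CPM with NAC, against 320.1, 307 and 306 CPM with vehicle. All NAC libraries were above all vehicle libraries, with a log2 fold change of 0.62 ± 0.04 and an edgeR adjusted p of 1.50e-11. For mt-Rnr2 the values were 1147, 1204 and 1164 CPM with NAC and 830.1, 778 and 788 CPM with vehicle, a change of 0.55 ± 0.05.

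Among the mRNAs, mt-Cytb had 738, 756 and 763 CPM with NAC, against 1323, 1264 and 1304 CPM with vehicle. The groups did not overlap, and its log2 change was -0.79 ± 0.04 with an edgeR adjusted p of 1.87e-13. In complex I the changes were -0.80 ± 0.05 for mt-Nd3, -0.76 ± 0.04 for mt-Nd4 and -0.73 ± 0.05 for mt-Nd4l with the copies added. They were -0.58 ± 0.05 for mt-Nd2, -0.55 ± 0.04 for mt-Nd5 and -0.40 ± 0.04 for mt-Nd1. The complex V genes mt-Atp8 and mt-Atp6 both changed by -0.34, with SE of 0.08 and 0.04. The complex IV genes mt-Co3 and mt-Co2 changed by -0.42 ± 0.03 and -0.32 ± 0.04 with the copies added.

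As deposited, mt-Co2, mt-Atp6 and mt-Co3 had no call under NAC, with log2 changes of -0.03 ± 0.13, -0.17 ± 0.10 and -0.14 ± 0.15, though mt-Atp6 was called without NAC replicate 1 (-0.34, adjusted p = 0.00489). The mt-Co1 mRNA had 9748, 9948 and 10080.1 CPM with NAC and 10011, 9696 and 10101 CPM with vehicle. These groups overlapped, and its change was 0.00 ± 0.03 with the copy added (adjusted p = 0.966, edgeR). The mt-Nd6 mRNA, at 3.40, 5.36 and 3.54 CPM with NAC, had a change of -0.27 ± 0.19 and no call (adjusted p = 0.229). Without NAC replicate 2 its change was -0.53 (adjusted p = 0.0319, copies added).

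**Figure D3:**
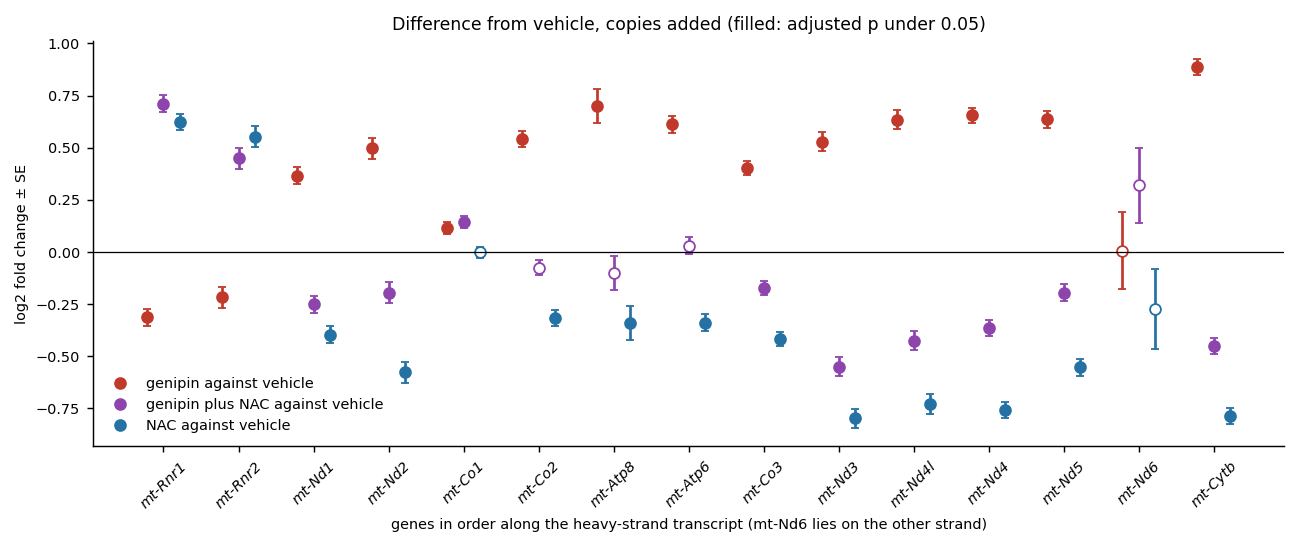
Log2 fold change against vehicle with its SE for the 15 measured genes in genome order, copies added, for genipin, genipin plus NAC and NAC. Filled points had an edgeR adjusted p under 0.05, the rRNAs at the left are below 0 with genipin and above 0 with NAC, and mt-Cytb at the right shows 0.89 with genipin and -0.79 with NAC.

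With genipin plus NAC against vehicle both rRNAs and mt-Co1 rose and most complex I mRNAs and mt-Cytb fell. From the deposited counts 3 of the 15 rose (28.5% of all genes) and 6 fell (28.9% of all genes), and with the copies added 3 rose and 8 fell, with the same shares of all genes, 28.5% and 28.9%. In the same libraries the summed markers of CD8 T cells were lower than with vehicle, though 5 of 8 were called higher and 1 lower. The sums of the other cell types except red cells were higher, with 2 of 3 tested mast cell or neutrophil markers called higher and 1 lower. The part of these markers in the result was not tested. The log2 change of mt-Rnr1 was 0.71 ± 0.04, from 553, 486 and 492 CPM with both compounds against 320.1, 307 and 306 CPM with vehicle. Of the mRNAs, mt-Nd3 (-0.55 ± 0.05, copy added), mt-Cytb (-0.45 ± 0.04), mt-Nd4l (-0.43 ± 0.05, copy added) and mt-Nd4 (-0.36 ± 0.04) fell most, and mt-Nd1, mt-Nd2, mt-Nd5 and mt-Co3 changed by -0.25 to -0.17. As deposited, the mt-Co3 change of -0.46 lost its call without the genipin plus NAC replicate 2 (-0.37, adjusted p = 0.0622) or vehicle replicate 2 (-0.31, adjusted p = 0.105). The deposited mt-Nd4l change, -0.24 ± 0.21, was not called. That of mt-Nd3, -0.29 and not called, was called without the genipin plus NAC replicate 1 (-0.42) or NAC replicate 2 (-0.30), and that of mt-Co2 without the genipin plus NAC replicate 3 (-0.35).

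The genes mt-Co2, mt-Atp8, mt-Atp6 and mt-Nd6 had no call in that comparison with the copies added, at -0.07, -0.10, 0.03 and 0.32. Without the genipin plus NAC replicate 1, mt-Co2 and mt-Atp8 were called, at -0.14 (adjusted p = 8.10e-05) and -0.28 (adjusted p = 2.75e-06, edgeR, copies added). The mt-Nd6 value without that library was 0.05, while without replicate 2 of the same group it was 0.46 and called (adjusted p = 0.0409, copies added), and its CPM with both compounds were 8.52, 4.89 and 5.42. The highest of these 3 is the library that stood apart.

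Genipin plus NAC against genipin shows what NAC changed in genipin-treated cells. Both rRNAs rose and 11 mRNAs fell, 2 and 11 of the 15 from the deposited counts and also with the copies added, where 35.0% of all genes rose and 34.3% fell in either fit. The marker sums of most cell types differed between these groups too, and their part in the result was not tested. The log2 change of mt-Cytb was -1.34 ± 0.04 (adjusted p = 9.42e-18, edgeR), from 1029.6, 906 and 911 CPM with both compounds against 2429, 2433 and 2337 CPM with genipin. These groups stood far apart. Those of mt-Nd3, mt-Nd4l and mt-Nd4 were -1.08, -1.06 and -1.02 with the copies added, each with an SE of 0.04 or 0.05. In complexes IV and V, mt-Atp8, mt-Co2, mt-Atp6 and mt-Co3 changed by -0.80, -0.62, -0.58 and -0.58 with the copies added. As deposited, mt-Co2, mt-Atp6 and mt-Co3 changed by -0.73 ± 0.13, -0.43 ± 0.10 and -1.004 ± 0.15, and mt-Nd3 and mt-Nd4l by -0.85 ± 0.17 and -0.83 ± 0.20, all 5 called.

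The rRNA mt-Rnr1 rose by 1.03 ± 0.04 and mt-Rnr2 by 0.67 ± 0.05 in that comparison. The mt-Co1 mRNA had 11481, 10777 and 10696 CPM with both compounds and 10841, 10829.6 and 10639.8 CPM with genipin. The groups overlapped, with a log2 change of 0.03 ± 0.03 (adjusted p = 0.370, edgeR, copy added). The mt-Nd6 change was 0.31 ± 0.18 and not called (adjusted p = 0.130), and without the genipin plus NAC replicate 2 it was 0.45 and called (adjusted p = 0.0360).

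Genipin plus NAC against NAC shows the genipin effect in NAC-treated cells. The marker sums of most cell types differed between these groups as well, and their part in the result was not tested. From the deposited counts 10 of the 15 rose (26.6% of all genes) and 0 fell (26.5% of all genes). With the copies added 13 rose and 0 fell, where 26.6% and 26.5% of all genes did so. At an unadjusted p under 0.05, 1 gene was lower in each fit, mt-Co3 as deposited (-0.32, unadjusted p = 0.0452) and mt-Rnr2 with the copies added (-0.10, unadjusted p = 0.0489). DESeq2 and limma-voom on the deposited counts also called 0 lower. The deposited mt-Co3 value was called lower without genipin replicate 1 (-0.32), the genipin plus NAC replicate 1 (-0.37), NAC replicate 2 (-0.45) or vehicle replicate 1 (-0.32), and with the copy added it was 0.25 and called higher. With the copies added the 13 mRNAs changed by 0.15 to 0.59, led by mt-Nd6 (0.59 ± 0.19), mt-Nd4 (0.39 ± 0.04), mt-Nd2 (0.38 ± 0.05) and mt-Atp6 (0.37 ± 0.04). The deposited changes of mt-Nd4l and mt-Nd3 were larger, 1.33 ± 0.24 against 0.30 ± 0.05 with the copy added and 0.65 ± 0.19 against 0.25 ± 0.05. Those of mt-Co2 (-0.14 ± 0.14) and mt-Atp6 (0.06 ± 0.10) were not called as deposited. The rRNAs had no call, mt-Rnr1 at 0.09 ± 0.04 and mt-Rnr2 at -0.10 ± 0.05. Single libraries decided the calls of mt-Nd6 and mt-Atp8. Without the genipin plus NAC replicate 1 they were at 0.32 and 0.06 (adjusted p = 0.102 and 0.210, copies added). Without NAC replicate 1 they were at 0.49 and 0.22 and without NAC replicate 3 at 0.50 and 0.22, and neither was called. The mt-Rnr2 change was called without the genipin plus NAC replicate 1, at -0.19. That of mt-Rnr1 was called at 0.12 without the genipin plus NAC replicate 2, without its replicate 3 and without NAC replicate 2.

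The interaction tests whether the genipin effect differed between cells with and without NAC. It is the log2 effect with NAC minus that without. From the deposited counts 1 of the 15 was higher (27.4% of all genes) and 7 were lower (24.0% of all genes), and with the copies added 1 was higher and 10 were lower (27.3% and 24.1% of all genes). With the copies added the largest called difference was that of mt-Cytb, whose genipin effect was 0.33 with NAC and 0.89 without, a difference of -0.55 ± 0.05 (adjusted p = 1.69e-08, edgeR). For mt-Rnr1 the effect was 0.09 with NAC and -0.31 without, a difference of 0.40 ± 0.06. The effect on mt-Nd2 was 0.38 with NAC and 0.50 without, and the difference of -0.12 ± 0.07 was not called (adjusted p = 0.187). Without the genipin plus NAC replicate 1 the mt-Nd2 difference was -0.20 and was called. That of mt-Nd6 was 0.59 ± 0.26 and not called (adjusted p = 0.0678, copies added). It was called without replicate 2 (0.73) or 3 (0.69) of genipin plus NAC, NAC replicate 2 (0.84) or vehicle replicate 2 (0.68). The deposited mt-Nd4l difference of 0.74, not called, was called at 0.84 to 0.93 without genipin replicate 3, the genipin plus NAC replicate 2, vehicle replicate 2 or vehicle replicate 3, and with the copy added it was -0.33 and called. As deposited, mt-Co2 and mt-Co3 differed by -0.70 and -0.86, against -0.30 and -0.16 with the copies added. The deposited mt-Atp6 and mt-Nd3 differences, -0.26 and 0.09, were not called, and with the copies added they were -0.25 and -0.28 and called.

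Ratios within a library do not depend on its total. The level of mt-Rnr2 over that of mt-Nd1, its downstream neighbour beyond a tRNA, was 0.215 ± 0.00649 with genipin, 0.522 ± 0.00952 with genipin plus NAC, 0.620 ± 0.0131 with NAC and 0.322 ± 0.00774 with vehicle (deposited TPM, SD, n = 3 each). For mt-Rnr1 over mt-Nd1 the ratios were 0.146, 0.456, 0.473 and 0.234 in the same groups. No group overlapped another in either ratio. The ratio of mt-Cytb to mt-Nd1, mRNAs from opposite ends of the transcript, was 1.11 ± 0.00922 with genipin, 0.672 ± 0.0104 with genipin plus NAC, 0.589 ± 0.00105 with NAC and 0.773 ± 0.00533 with vehicle. These ratios are given as values, without a test.

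The light-strand mRNA was compared with its heavy-strand neighbour. The TPM of mt-Nd6 as a percent of that of mt-Cytb was 0.652%, 0.641% and 0.667% with genipin. It was 2.59%, 1.70% and 1.88% with genipin plus NAC, 1.46%, 2.22% and 1.48% with NAC, and 1.34%, 1.07% and 1.21% with vehicle. Each genipin library was below every other library, and the groups with NAC overlapped each other. The log2 ratio of the counts differed over the 4 groups (exact permutation test of the F statistic, p = 0.00117, where 6.49e-05 is the smallest p the design allows). The differences from vehicle were -0.87 for genipin, 0.75 for genipin plus NAC and 0.48 for NAC. Each had a 2-sided exact permutation p of 0.1, the smallest that 3 against 3 libraries allow. In the same order mt-Nd6 itself changed from vehicle by 0.01, 0.32 and -0.27, none called, and mt-Cytb by 0.89, -0.45 and -0.79, all called. The ratio thus follows mt-Cytb closely with genipin. It depends on the heavy-strand gene chosen, as mt-Cytb changed most of these mRNAs with genipin and mt-Co1, as deposited, by 0.13.

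**Figure D4:**
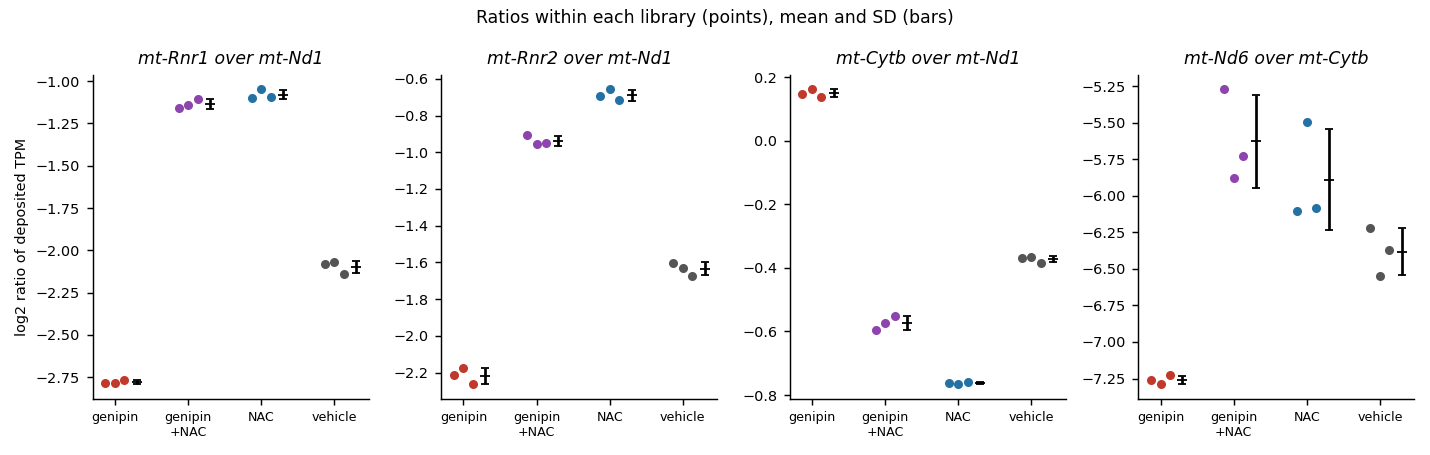
Log2 ratios of deposited TPM within each library (points) with the mean and SD of each group. Genipin libraries are lowest for both rRNAs over mt-Nd1 and for mt-Nd6 over mt-Cytb, and highest for mt-Cytb over mt-Nd1.

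Nuclear genes of the same complexes were set beside the mt- genes. Of 77 nuclear subunits of complexes I to V, all tested, 6 rose and 43 fell with genipin against vehicle, where 29.9% of all genes rose and 31.0% fell, with a median log2 change of -0.13. By complex, 21 of 37 in complex I, 2 of 4 in complex II, 6 of 9 in complex III, 6 of 11 in complex IV and 8 of 16 in complex V fell. Examples are Uqcrc2, a core protein of complex III (-0.54 ± 0.03), Ndufv3 of complex I (-0.61 ± 0.04), Cox7c of complex IV (-0.46 ± 0.04) and Atpif1, the inhibitor of complex V (-0.48 ± 0.04). The mRNAs from mitochondrial DNA of complexes I, III, IV and V, mt-Nd6 apart, rose in the same libraries.

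With NAC 2 of the 77 rose and 64 fell (29.6% and 30.0% of all genes), with a median of -0.25, among them Cox7b (-0.57 ± 0.03) and Atp5j (-0.53 ± 0.04). With both compounds against vehicle 3 rose and 60 fell (28.5% and 28.9% of all genes), with a median of -0.24. In the interaction 43 of the nuclear subunits were higher and 7 lower (27.4% and 24.0% of all genes), with a median of 0.18, beside a median of -0.22 for the 15 mt- genes and 0.03 for all genes. For both compounds against genipin 18 were higher and 43 lower (35.0% and 34.3% of all genes), and against NAC 22 were higher and 13 lower (26.6% and 26.5% of all genes).

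**Figure D5:**
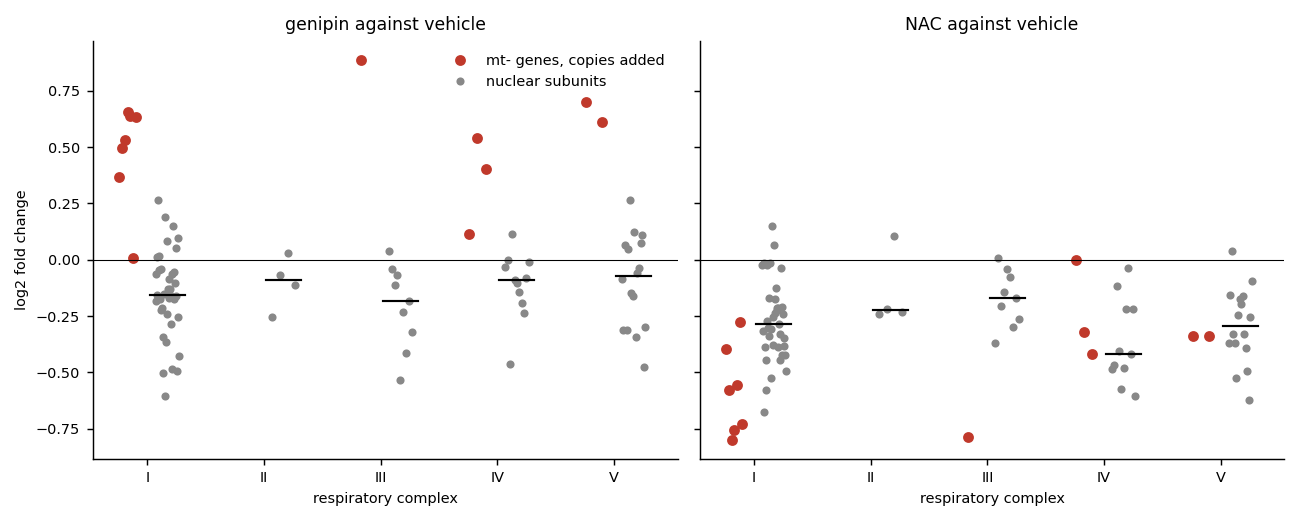
Log2 fold change of each mt- mRNA (copies added) and each nuclear subunit, by respiratory complex, for genipin and NAC against vehicle, with a line at the median of the nuclear subunits. With genipin the mt- mRNAs are at 0.01 to 0.89 and the nuclear medians below 0, and with NAC both kinds are mostly below 0.

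Nuclear genes that make or handle mitochondrial RNA were counted in the same way. Of 19 genes of mitochondrial transcription and DNA replication, 1 rose and 6 fell with genipin against vehicle, beside 29.9% and 31.0% of all genes. With both compounds 3 rose and 4 fell (28.5% and 28.9% of all genes), and with NAC 5 rose and 3 fell (29.6% and 30.0% of all genes). The share that fell with genipin was near that of all genes, and each of the other counts for this list was near or below it. Tfam, which packages the DNA and starts transcription, had 49.1, 49.3 and 49.8 CPM with genipin, 48.4, 41.9 and 42.4 with genipin plus NAC and 50.0, 48.9 and 52.0 with NAC, against 46.5, 46.2 and 47.5 CPM with vehicle. None of its 3 changes from vehicle was called, at 0.08, -0.08 and 0.11 in that order (edgeR adjusted p = 0.172, 0.181 and 0.0756). Polrmt was not called either, at 0.01, -0.18 and 0.07. Tfb2m rose by 0.26 ± 0.06 with genipin and fell with NAC (-0.19 ± 0.07).

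Other genes of that list moved more. Primpol, a primase and polymerase, had log2 changes from vehicle of -0.61 (genipin), 0.26 (both compounds) and 0.64 (NAC). Top1mt, the mitochondrial topoisomerase, changed by -0.73 with genipin, and Ssbp1, which binds single-stranded mitochondrial DNA, by -0.41 with NAC.

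Of 31 tested genes of mitochondrial RNA processing, stability and decay, 4 rose and 13 fell with genipin (29.9% and 31.0% of all genes), 1 rose and 19 fell with both compounds (28.5% and 28.9%), and 4 rose and 12 fell with NAC (29.6% and 30.0%). Hsd17b10, a subunit of the enzyme that cuts the 5′ ends of mitochondrial tRNAs, fell in all 3 treatments. The genipin libraries had 92.7, 88.0 and 97.4 CPM of it, those of both compounds 97.0, 111.7 and 109 CPM and the NAC libraries 87.4, 87.1 and 85.7 CPM, against 172, 170.4 and 177 CPM with vehicle. All 9 treated libraries were below all vehicle libraries. Its log2 changes were -0.90, -0.71 and -0.996. Lrpprc and Slirp form a complex that stabilises mitochondrial mRNAs. Lrpprc had no call with genipin (-0.06) and fell with both compounds (-0.32) and with NAC (-0.27), and Slirp changed by -0.28, -0.32 and -0.24. Angel2 changed by 0.60 with genipin and -0.40 with NAC.

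Of 10 outer membrane and matrix genes used as a guide to mitochondrial mass, 8 fell with genipin (31.0% of all genes), 9 fell with both compounds (28.9%), and 1 rose and 4 fell with NAC (29.6% and 30.0%). The import receptor Tomm20, the pore Vdac1 and citrate synthase (Cs) changed by -0.51, -0.49 and -0.41 with genipin.

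Of 6 tested noncoding RNAs, read here as signs of RNA quality and rRNA removal, 3 rose and 1 fell with genipin (29.9% and 31.0% of all genes), 1 rose and 3 fell with both compounds (28.5% and 28.9%), and 5 fell with NAC (30.0%). Gm26917, Rpph1 and Rn7sk were higher with genipin and lower with NAC and with both compounds. Gm26917 had 190.4 to 206 CPM with genipin, 73.5 to 103 with both compounds and 86.2 to 92.0 with NAC, against 124 to 137 CPM with vehicle. Rpph1, the RNA of nuclear RNase P, changed by 1.03, -1.29 and -1.61 in that order, and Rn7sk by 0.45, -0.93 and -1.59. The level of Rpph1 was low, at 4.16 ± 0.53, 0.81 ± 0.45 and 0.70 ± 0.52 CPM, against 2.06 ± 0.66 CPM with vehicle (SD, n = 3 each). The abundant nuclear RNAs Malat1 and Neat1 did otherwise. Malat1 averaged 254 ± 6.40 CPM with genipin, 506 ± 38.7 with both compounds and 244 ± 23.6 with NAC, against 244 ± 9.46 CPM with vehicle (SD, n = 3 each), and its change of 1.05 with both compounds was the 1 that was called. Neat1 averaged 110.0 ± 1.61, 113 ± 4.203 and 55.8 ± 1.78 CPM in these groups, against 119 ± 3.27 CPM with vehicle, and fell with genipin (-0.11, edgeR adjusted p = 0.0128) and with NAC (-1.09). Rmrp fell with NAC (-1.66 ± 0.58, SE) and had no call with genipin or both compounds. The part of RNA quality, rRNA removal or the other cell types' markers in the results on the mt- genes was not tested.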

How the data were processed

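Total RNA of 12 libraries in 4 groups of 3 was sequenced, with groups taken from the labels. The submitters' processing notes name the mm10 genome, RSEM 1.3.1, STAR 2.7.0f, cutadapt 1.18 and bcl2fastq. Per the file headers, the deposited tables give effective lengths, expected counts, TPM and FPKM. Expected counts as deposited were rounded and tested, the TPM the authors deposited were used for ratios, and deposited FPKM were not used. All IDs matched GENCODE mouse release 21, the source of coordinates and transcript sequences.

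Low counts were removed with filterByExpr of edgeR 4.0.16 (R 4.3.3), and 13636 genes remained. TMM factors were 0.961 to 1.05. The quasi-likelihood model had a mean for each group (8 residual and 12.6 prior degrees of freedom, common biological coefficient of variation 0.0393). The 6 contrasts were adjusted by Benjamini and Hochberg over all genes. Standard errors were derived from each log2 fold change and its F statistic. In the copies-added fit the counts of 7 chromosome 1 genes were added to their mt- genes, which left 13629 genes. Simulated data had 50 changed genes per size in the genipin libraries, no other group difference and a biological coefficient of variation of 0.04 throughout. There genipin against vehicle found 27 at a log2 change of 0.25, 36 at 0.5, 49 at 1 and 50 at 2, beside 8 false calls. In the data far more genes were called, 29.9% higher and 31.0% lower, and spread differed by gene. The recovery figures therefore describe the simulated setting only.

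Every mt- gene with a mean of at least 10 expected counts is described. From each list the rule takes up to 4 members with the smallest p in a contrast, and always Tfam, Polrmt, Tfb2m, Lrpprc and Slirp, and the text describes a part of these. Members and lists were chosen with earlier results of these data known. Other scalings, filters, tools (DESeq2 1.42.0, limma-voom from limma 3.58.1) and left-out libraries were tried.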

Additional observations from a re-analysis of the deposited data

Results flagged for a closer look

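For 8 mt- genes the genipin effect in NAC-treated cells differed from that in cells without NAC, by the interaction test of edgeR on the deposited counts. The difference, effect with NAC minus effect without, was 0.40 for mt-Rnr1, and the other 7 were negative. It was -0.22 for mt-Nd1, -0.26 for mt-Nd4, -0.28 for mt-Nd5, -0.46 for mt-Atp8 and -0.55 for mt-Cytb on the log2 scale. The values of mt-Co2 and mt-Co3, -0.70 and -0.86, came from deposited counts that hold the smaller part of each gene's pair with its chromosome 1 copy, and they were -0.30 and -0.16 with the copies added.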

How the results depend on the processing

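For single mt- genes, direction and call were as reported in 1084 of 1155 values under other settings and in 1018 of 1080 with a library left out. These totals pool the same genes over related contrasts and settings that differ in weight. With limma-voom all 90 values were as reported. The number was 77 with the copies added, 76 with no normalization factors and 73 with no filter. With no filter 11 genes were lower for genipin plus NAC against vehicle, and 3 were lower against NAC, where 2 were lower with no normalization factors and 1 with only the groups compared. For the interaction 3 were higher with upper-quartile factors, 4 with no filter and 2 with a filter at a mean of 5 CPM. The fit with the replicate number as a block gave 2 for that count. Libraries that share a number had correlations of -0.0751 to 0.0437 within groups centred at 0, and 4 of 12 were closest to their own number, so the numbers were not taken as pairs. With no normalization factors the median of all genes was at 0.11 for NAC against vehicle and at -0.11 for the interaction.

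Leaving out each library in turn gave 0 to 2 genes lower for genipin plus NAC against NAC and 1 to 3 higher for the interaction. With the copies added as well these ranges were 0 to 1 and 1 to 2. For genipin against vehicle 10 to 12 were higher as deposited and 12 in every case with the copies added. The permutation p of the ratio of mt-Nd6 to mt-Cytb ran from 0.000195 to 0.00312.

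The mt- genes took 4.69% of the deposited TPM with genipin, 3.15% with genipin plus NAC, 3.04% with NAC and 3.08% with vehicle. Of this mt-Atp8, whose effective length is too short for a level, had 21331 to 24043 TPM with genipin and 13194 to 14722 TPM with vehicle. Of the counts they took 3.21%, 2.44%, 2.25% and 2.38% with the copies added.

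Log2 changes that turned sign were not called in the main fit of the deposited counts, though some of them were called with the copies added. With genipin against vehicle mt-Nd6 was at -0.015 with upper-quartile factors and -0.0049 with the filter at 5 CPM, and at -0.088 to 0.10 with a library left out. With NAC against vehicle mt-Co2 was at 0.091 with no normalization factors, and mt-Co1 at -0.0071 with no filter and -0.0015 with the copies added. With a library left out mt-Co1 was at -0.013 to 0.015, mt-Co2 at -0.15 to 0.10 and mt-Co3 at -0.30 to 0.015. For genipin plus NAC against vehicle mt-Atp6 was at 0.030 with the copies added and at -0.19 to 0.0080 with a library left out, and mt-Nd4l at -0.43 to 0.21. Against genipin mt-Co1 was at -0.013 with no normalization factors and at -0.023 to 0.030 with a library left out. Against NAC mt-Atp6 was at -0.017 with no normalization factors and at -0.024 to 0.23 with a library left out, and the copies moved mt-Co2 to 0.24 and mt-Co3 to 0.25, both then called.

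For the interaction mt-Co1 was at -0.0062 with RLE factors and with DESeq2, -0.0042 with effective-length offsets, -0.14 with no normalization factors and -0.028 to 0.025 with a library left out. With no normalization factors mt-Rnr2 was at -0.030 and mt-Nd3 at -0.050. The copies moved mt-Nd3 to -0.28 and mt-Nd4l to -0.33, both then called, and mt-Nd3 was at -0.20 to 0.35 with a library left out. Except for the copies, which changed the counts themselves, the cause of these changes was not tested.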

Other observations

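The deposited counts assigned to the chromosome 1 copies cannot be told apart from reads of their mt- genes where the sequences are identical, and their values are given as assigned. With genipin against vehicle Gm28439, the copy of mt-Nd4, changed by 0.85, Gm10925 (copy of mt-Atp6) by 0.65, Gm10222 (copy of mt-Nd4l) by 0.64, Gm28661 (copy of mt-Co2) by 0.54, Gm28438 (copy of mt-Nd3) by 0.53 and Gm28437 (copy of mt-Co3) by 0.38 on the log2 scale. Gm29216, the copy of mt-Co1, had no call in that comparison (-0.05, edgeR adjusted p = 0.324). It was 0.21 higher with both compounds than with genipin alone (adjusted p = 0.000104), where mt-Co1 as deposited was at 0.01 with no call. Of the 11 listed nuclear copies of mitochondrial DNA 9 were tested, and 6 rose and 1 fell with genipin (29.9% and 31.0% of all genes), while 7 fell with NAC (30.0% of all genes), each against vehicle.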
